A study of Mus musculus with 2 samples.

Results

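The B and plasma cell genes described here are Ms4a1, Cd79a, Cd79b, Mzb1, Pax5, Blk, Fcer2a, Derl3 and Prdm1, which are 9 of the 20887 genes that had a matched probe on the arrays. They were chosen by name as genes known from B lymphocytes and antibody-secreting cells, and their probes were found through the RefSeq accession that the scanner files give for each probe. They were read in sorted intraepithelial lymphocytes (IELs), which are T cells lying between the epithelial cells of the gut, so their signal bears on whether RNA of other cells was in the pools and whether it differed between the genotypes.

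TCRαβ+ CD8αα+ IELs of the small intestine were compared between Control mice, Rbpjf/f, and RFF4 mice, CD4-Cre Rbpjf/f, on 2 single-color Agilent mouse arrays. All mice were on the C57BL/6 strain, 8 to 12 weeks old, of both sexes pooled, and the labels give the floxed Rbpj allele to both groups and name no Cre for the Control mice. The study's text differs from the labels here, as it describes the control mice as Rbpj+/+ with CD4-Cre, and which applies to the Control array cannot be told from the files. CD4-Cre acts in developing T cells, so Rbpj, the DNA-binding partner of the Notch receptors, is not its target in B cells or plasma cells. Per the study's methods Peyer's patches, which are rich in B cells, were removed before isolation. The labels state that CD4+ and TCRγδ+ cells were depleted before sorting, and that the sorted cells bore TCRβ and CD8α but neither CD4, TCRγδ nor CD8β. RNA from several isolations was pooled, which leaves 1 array per genotype. No replicate spread and no test can be had from this design, and every difference below is between these 2 pools of RNA.

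B cells recognize antigen through a membrane immunoglobulin that signals through the paired chains CD79a and CD79b, and kinases such as Blk pass that signal on. Pax5 holds B cell identity, and once a B cell is activated Prdm1 (Blimp-1) shuts Pax5 down and opens the program of the plasma cell, which secretes antibody and expands its endoplasmic reticulum (ER). In the gut, plasma cells sit in the lamina propria below the epithelium and release IgA, and B cells gather in Peyer's patches and lymphoid follicles. Prdm1 is also used by T cells, so it is not exclusive to the B lineage.

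Signals were brought to a common scale by taking log2 of the background-subtracted signal and subtracting the 75th percentile of all gene spots of the same array. That percentile was 8.99 for Control and 7.82 for RFF4, so a probe whose unscaled signals were equal reads as 1.17 higher in RFF4. The scanner software marked 57.2% of 59305 gene spots as well above background in Control and 49.7% in RFF4, and no spot was saturated. A difference was given to 13513 genes, and its median was −0.02 on the log2 scale. Among those genes 12.3% were more than 2-fold higher in RFF4 and 5.06% more than 2-fold lower, 1.85% were more than 4-fold higher and 0.585% more than 4-fold lower. Spots of 1 probe repeated 10 times on an array spread with an SD of 0.10 on the log2 scale on either array, which gives an SD of 0.14 for a difference between single spots and says nothing of the spread between animals. The targeted gene Rbpj had 2 probes, with levels of 1.96 in Control and 2.28 in RFF4 for the brighter and −1.44 and −0.62 for the other. The files do not place these probes relative to the deleted part of Rbpj, so they do not check the genotype.

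Of the 9 genes, 6 gave a signal well above background on both arrays, namely Cd79b, Ms4a1, Fcer2a, Prdm1, Mzb1 and Derl3. Cd79a, Pax5 and Blk were not well above background on either array. Relative to each array's 75th percentile, Mzb1 and Ms4a1 were more than 2-fold higher in RFF4, Fcer2a and Derl3 were higher by less than 2-fold, and Cd79b and Prdm1 were lower by less than 2-fold. The count of 2 of 6 stands beside the 12.3% of all genes with a difference, and 1 of the 6, Mzb1, was also among the 1.85% more than 4-fold higher. The median difference of the 6 genes was 0.63 on the log2 scale, against −0.02 over all genes. In bulk RNA of this kind, more cells of a type cannot be told apart from more RNA of these genes per cell.

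**Figure D1:**
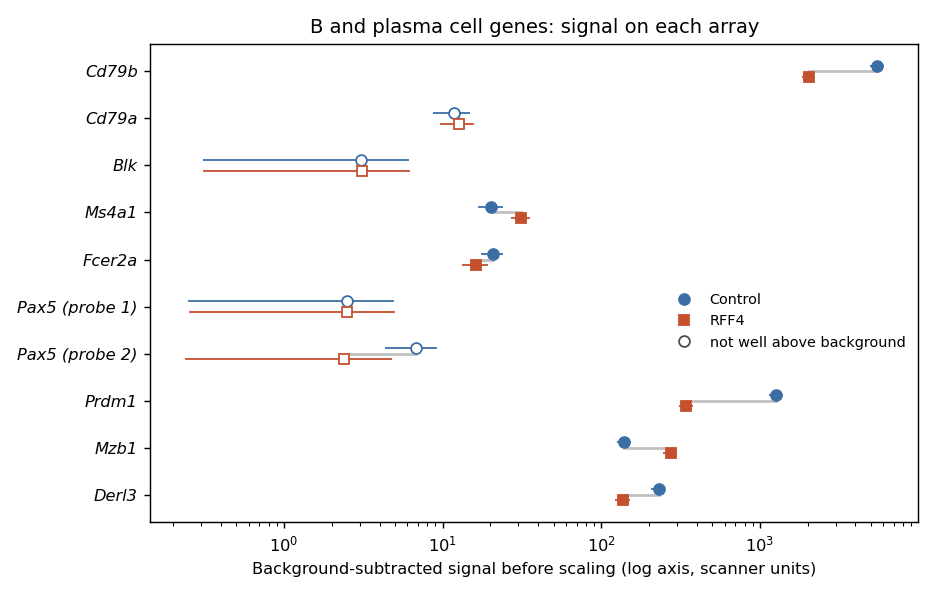
Background-subtracted signal of every probe of the 9 genes on each array, before scaling, on a log axis in scanner units, with blue circles for Control, red squares for RFF4 and bars for the error that the scanner software gives, shortened on the left where it exceeds the signal. Open symbols are signals not well above background: Cd79a, Blk and both Pax5 probes are open on both arrays, and only Ms4a1 and Mzb1 of the filled pairs lie further right in RFF4. Signals of different probes are not comparable with each other.

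The antigen receptor chains differed in whether they were measured at all. The Cd79b probe gave an unscaled signal of 5467 in Control and 2032 in RFF4. On the scaled log2 level this was 3.42 in Control and 3.17 in RFF4, a difference of −0.26 with a scanner error of 0.20, or 1.20-fold lower. The Cd79b signal was thus far above its local background, which was 30.0 and 31.0 scanner units, and close to equal once the arrays were scaled. Its partner Cd79a gave 11.8 in Control and 12.7 in RFF4 and was not well above background on either array. The probe of Blk, a Src family kinase of B cells, gave 3.06 and 3.09 with a scanner error of about 100.3% on each array. For Cd79a and Blk only an upper limit of their signal was measured, and no fold is given. Cd79b was therefore the only chain of the receptor complex with a measured signal among the 9 genes, and its difference was in the opposite direction to those of Ms4a1 and Mzb1.

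Among surface molecules of mature B cells, the probe of Ms4a1, which encodes CD20, gave 20.3 scanner units in Control and 31.2 in RFF4. Both values were well above background but dim, at a local background of 33.0 and 48.0 units that the scanner had subtracted. The scaled level of Ms4a1 was −4.65 in Control and −2.86 in RFF4, a difference of 1.79 with a scanner error of 0.32, or 3.46-fold higher. The unscaled signal of Ms4a1 was 1.54-fold higher in RFF4, and the rest of the difference is the scaling. Fcer2a, which encodes the low-affinity IgE receptor CD23, gave 20.7 in Control and 16.3 in RFF4. Its scaled level was −4.62 and −3.79, a difference of 0.83 with a scanner error of 0.36. Fcer2a was thus 1.78-fold higher after scaling, while its unscaled signal was 1.27-fold lower. These 2 dim genes fall in the lowest of 8 equal groups of genes ordered by mean level, where the median difference of all genes was 0.48 and 26.9% of genes were more than 2-fold higher in RFF4. The 5th and 95th percentiles of that group were −0.82 and 1.81, so Ms4a1 lay just inside this range and Fcer2a nearer the median.

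The transcription factors on either side of the plasma cell switch were not measured alike. Pax5 had 2 probes, with signals of 2.48 in Control and 2.5 in RFF4 for the first and 6.75 and 2.39 for the second, none of them well above background. Prdm1 gave 1264 in Control and 343 in RFF4, well above background on both arrays. Its scaled level was 1.31 in Control and 0.60 in RFF4, a difference of −0.71 with a scanner error of 0.20, or 1.64-fold lower. Prdm1 had the largest difference toward lower values among the 6 measured genes. Genes of its mean level had a median difference of −0.15, with a range from the 5th to the 95th percentile of −1.06 to 1.47, and Prdm1 lies inside it.

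Mzb1 and Derl3 belong to the secretory machinery. Mzb1 encodes an ER co-chaperone of antibody assembly in marginal zone B cells and plasma cells, and its probe was spotted 10 times on each array. Its spots gave 121 to 155 scanner units in Control, with a median of 140 and a mean of 139 ± 9.41 (SD over 10 spots of 1 array). In RFF4 the spots gave 259 to 299 units, with a median of 274 and a mean of 274 ± 12.4 (SD over 10 spots of 1 array). Each of the 10 spots was marked well above background in Control and RFF4, and the lowest RFF4 spot was brighter than the highest Control spot even before scaling. The scaled level of Mzb1 was −1.87 in Control and 0.27 in RFF4, a difference of 2.15, or 4.43-fold higher. Spot by spot the difference ran from 1.92 to 2.36 with an SD of 0.12. The spots share 1 labeled RNA, so their spread is the error of the spot and not of the cells. Genes of the same mean level as Mzb1 had a median difference of −0.05, a 95th percentile of 1.56, and 13.8% of them were more than 2-fold higher, and Mzb1 lay above that percentile.

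**Figure D2:**
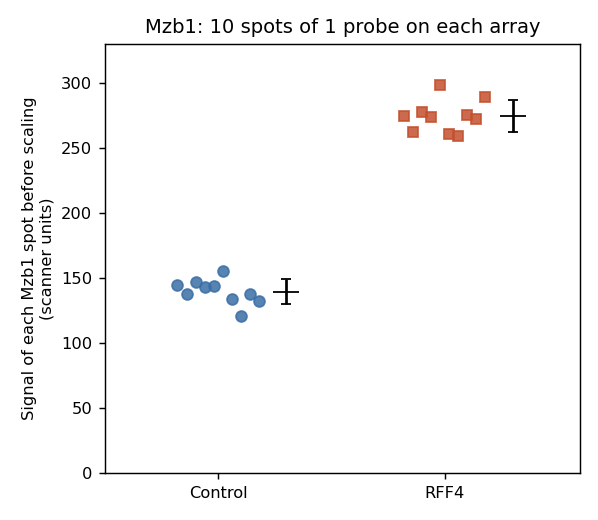
Unscaled signal in scanner units of the 10 Mzb1 spots on the Control array (blue circles) and the RFF4 array (red squares), with the mean and SD over spots in black. The RFF4 spots, 259 to 299, all lie above the Control spots, 121 to 155.

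Derl3 encodes Derlin-3, an ER membrane protein that helps to clear misfolded proteins and is induced by ER stress. Its probe gave 230 in Control and 137 in RFF4. The scaled level was −1.15 and −0.73, a difference of 0.42 with a scanner error of 0.21, or 1.34-fold higher, while the unscaled signal was 1.68-fold lower. Both genes fall in the same group of genes by mean level, and Derl3 lay close to that group's median of −0.05 where Mzb1 did not.

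Promoter sequence was at hand for 5 of the 9 genes, in 7 windows running from 250 bases before to 50 bases after a RefSeq transcript start in GRCm38.p6. Cd79a, Pax5, Derl3 and Prdm1 had a single window each, and Fcer2a had 3. The search covered 3 motifs on both strands. The core of the RBPJ site, TGGGAA, was searched because Rbpj is the deleted gene, the EBF1 palindrome, TCCC and GGGA with 2 bases of any kind between them, for the B cell program, and the ER stress response element, CCAAT and CCACG with 9 bases of any kind between them, for the secretory program. The Derl3 window is shown for its ER stress response element, which 0.119% of 32851 windows hold, and the Prdm1 window for its RBPJ core, which 25.6% of windows hold. Derl3 lies on the plus strand at chr10:75893148-75893447 and Prdm1 on the minus strand at chr10:44458699-44458998, and the capitals mark the matched motif, read on the opposite strand in both.
Derl3: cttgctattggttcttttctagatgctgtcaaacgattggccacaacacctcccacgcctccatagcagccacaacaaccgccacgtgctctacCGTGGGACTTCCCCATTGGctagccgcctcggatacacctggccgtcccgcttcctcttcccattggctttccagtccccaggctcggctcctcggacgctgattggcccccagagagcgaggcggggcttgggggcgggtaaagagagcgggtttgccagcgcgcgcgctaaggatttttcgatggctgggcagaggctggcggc
Prdm1: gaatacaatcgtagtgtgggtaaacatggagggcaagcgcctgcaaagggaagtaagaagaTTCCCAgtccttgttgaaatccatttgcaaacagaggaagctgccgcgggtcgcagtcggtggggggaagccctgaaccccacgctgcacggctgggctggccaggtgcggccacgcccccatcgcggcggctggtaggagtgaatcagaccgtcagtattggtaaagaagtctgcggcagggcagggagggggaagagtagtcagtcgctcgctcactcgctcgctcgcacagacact
The element in the Derl3 window begins 156 bases before the start, and the core in the Prdm1 window begins 189 bases before it. Derl3 also holds the RBPJ core, 99 bases before its start and not overlapping the capitals, and 2 of the 3 Fcer2a windows hold it. The EBF1 palindrome, found in 0.904% of all windows, was in none of the 7. Creld2, an ER stress gene with a difference of 0.11, also has the ER stress response element in its window. These matches describe letters, and no binding was measured here.

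The spread of differences over all genes varied with brightness. The 12955 genes that passed the background mark in Control and RFF4 alike had a higher median difference and more genes past 2-fold at the dim end than in the middle, as the groups of genes ordered by level show.

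**Figure D3:**
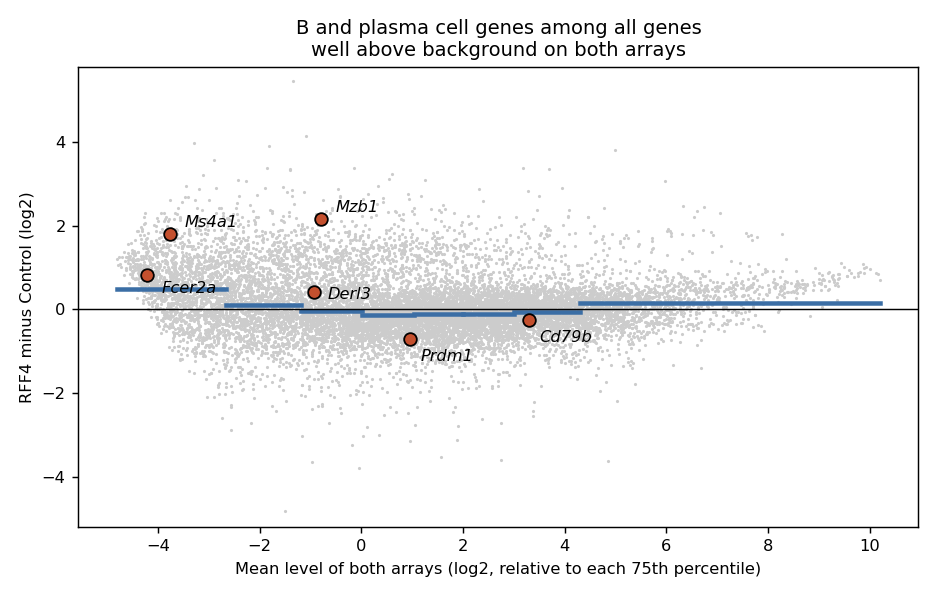
Difference between RFF4 and Control against the mean level of both arrays, both on the log2 scale relative to each array's 75th percentile, for 12955 genes measured above background in Control and RFF4 (gray) and the 6 measured B and plasma cell genes (red). Blue bars are the median of each of 8 equal groups of genes, 0.48 at the dimmest and −0.15 in the fourth. Mzb1 lies above the 95th percentile of the genes of its level, 1.56,, and Cd79b and Derl3 lie close to the bulk.

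The differences were recomputed under 11 other settings. With the spike-in controls, RNA added in equal amount to each labeling, set equal between the arrays, the median difference of all genes became −1.08 and Mzb1 was the only one of the 6 genes still more than 2-fold higher, at 1.04. Ms4a1 then read 0.69, Fcer2a and Derl3 turned to −0.28 and −0.69, and Cd79b and Prdm1 read −1.36 and −1.82, both more than 2-fold lower, as were 55.6% of all genes, while 1.46% were more than 2-fold higher. With normexp background correction, which lifts dim signals away from 0, Ms4a1 read 1.03 and Mzb1 1.69. Mzb1 was thus short of 4-fold with normexp and the spike-in scaling, and also with median scaling, at 1.97. Over the settings Mzb1 ranged from 1.04 to 2.24, Ms4a1 from 0.69 to 1.79, Fcer2a from −0.28 to 0.98, Derl3 from −0.69 to 0.51, Cd79b from −1.36 to −0.25 and Prdm1 from −1.82 to −0.60. The spike-in setting lowers every gene measured on both arrays by the same amount, so the turned signs of Fcer2a and Derl3 follow from that constant.

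**Figure D4:**
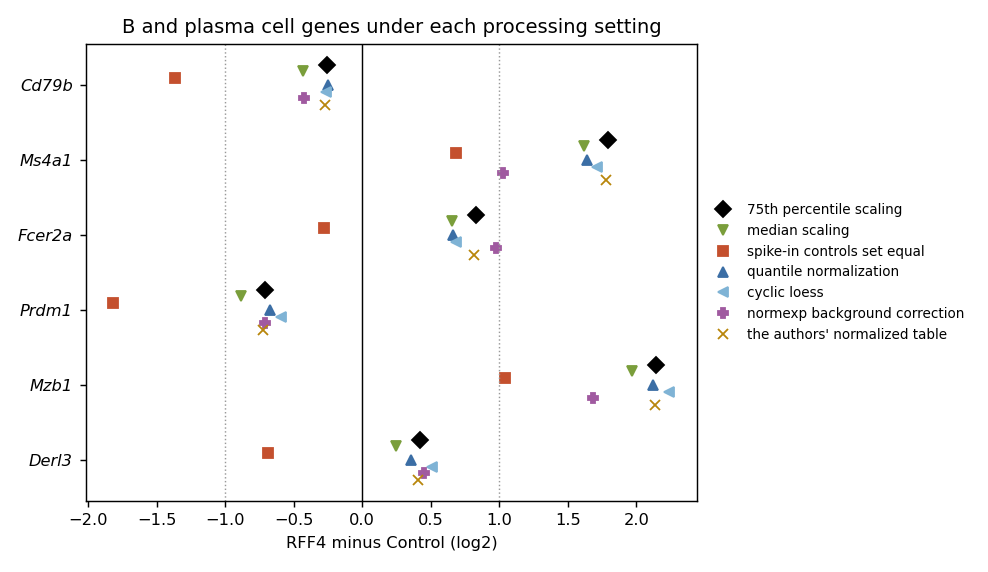
Difference between RFF4 and Control on the log2 scale for the 6 measured genes under the 75th percentile scaling (black diamonds) and 6 other settings, with dotted lines at 2-fold. The spike-in setting (red squares) lies lowest for each gene, at 1.04 for Mzb1 and −1.82 for Prdm1, and normexp (purple) is the next lowest for Ms4a1 at 1.03.

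Of 20 other B cell genes, 17 had a difference, and the other 3, Ebf1 and Cd180 among them, were not well above background on either array. Their median difference was 1.06 on the log2 scale, 12 were higher and 5 lower in RFF4, while scaling by the spike-in controls left 8 higher and 9 lower. More than 2-fold higher were 9 of the 17, beside 12.3% of all genes, and more than 2-fold lower was 1, beside 5.06%. Many of these genes were dim, and the list's median level was −3.60 in Control and −2.52 in RFF4 (medians of different genes). In the lowest of the 8 groups by mean level, 26.9% of genes were more than 2-fold higher. With normexp 7 of 16 were more than 2-fold higher and 0 more than 2-fold lower, beside 9.21% and 3.67% of all genes. Blnk and Tnfrsf13c were then no longer past 2-fold. With the spike-in scaling 1 was more than 2-fold higher and 5 more than 2-fold lower, beside 1.46% and 55.6% of all genes. Vpreb3, which binds the immunoglobulin chains of B lineage cells, gave 67.8 units in Control and 148 in RFF4, a difference of 2.29. Pou2af1, the coactivator OBF-1 of B cells, gave 86.9 and 143, a difference of 1.89. Fcrla, an Fc receptor-like protein inside B cells, gave 12.9 and 23.8, a difference of 2.05. Like Mzb1 and Ms4a1, these 3 genes had a higher signal in RFF4 before scaling as well, and with normexp Vpreb3 read 1.66 and Fcrla 1.16. Fcmr, the receptor for IgM, had a difference of 1.53, Spib 1.25, Tnfrsf13c, the receptor for the survival factor BAFF, 1.19, and the adaptor Blnk 1.06, which was 0.89 with median scaling. Btk, a kinase of the antigen receptor pathway, and Cxcr5, the chemokine receptor that guides B cells to follicles, were well above background in RFF4 alone, where they were at least 3.54-fold and at least 2.65-fold higher. On the log2 scale these bounds are 1.82 and 1.40, and they became 0.72 and 0.30 with the spike-in scaling and 1.20 and 1.13 with normexp. Before scaling Btk gave 12.6 units in Control and 19.8 in RFF4, and Cxcr5 gave 10.9 and 13.2. The dimmer Btk probe was not well above background on either array. Pou2f2, the partner factor of Pou2af1, was lower, at 241 in Control and 47.0 in RFF4, a difference of −1.19, which was −0.53 with normexp. The coreceptors Cd22 and Cr2 differed by 0.21 and 0.16, although the dimmer of the 2 Cr2 probes gave 1.20. Cd72, a surface inhibitor of B cell signaling, gave 8622 and 2643 units, a difference of −0.54. The B cell genes thus fell on both sides of 0, as the 9 genes did, and Ebf1, Pax5 and Cd79a, which take part in defining the B lineage, were below the background mark in Control and RFF4.

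Of 12 other plasma cell genes, all had a difference, with a median of 0.27. Of these, 8 were higher and 4 lower in RFF4, while scaling by the spike-in controls left 4 higher and 8 lower. More than 2-fold higher were 5 of the 12, beside 12.3% of all genes, and 0 were more than 2-fold lower, beside 5.06%. With the spike-in scaling 0 were more than 2-fold higher and 5 more than 2-fold lower, beside the same 1.46% and 55.6% of all genes. Jchain, the chain that joins IgA and IgM into polymers, gave 7614 units in Control and 10820 in RFF4, a difference of 1.68. Tnfrsf17, the survival receptor BCMA of plasma cells, gave 12.5 and 20.4, a difference of 1.88, which was 1.01 with normexp. Fkbp11, a chaperone of secretory cells, was well above background in RFF4 alone and at least 2.85-fold higher there, a bound of 1.51 on the log2 scale that became 0.40 with the spike-in scaling. Irf4, a factor needed for plasma cells and also used by activated T cells, differed by 1.43, and Sdc1, the plasma cell surface marker CD138 that epithelium also carries, by 1.02, which was 0.84 with median scaling, 0.99 with quantile normalization and 0.83 with normexp. Xbp1, which drives expansion of the ER and is widely expressed, gave 31909 and 11532 units, a difference of −0.30. Eaf2, Ell2 and Tnfrsf13b lay between −0.27 and −0.05, and Sec11c, Creld2 and Txndc5 between 0.11 and 0.41. Jchain and Tnfrsf17 were brighter in RFF4 before scaling, as Mzb1 was, whereas Xbp1, Prdm1 and Derl3 were dimmer. Immunoglobulin heavy and light chain segments were not analysed here, since no probe could be matched to one.

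**Figure D5:**
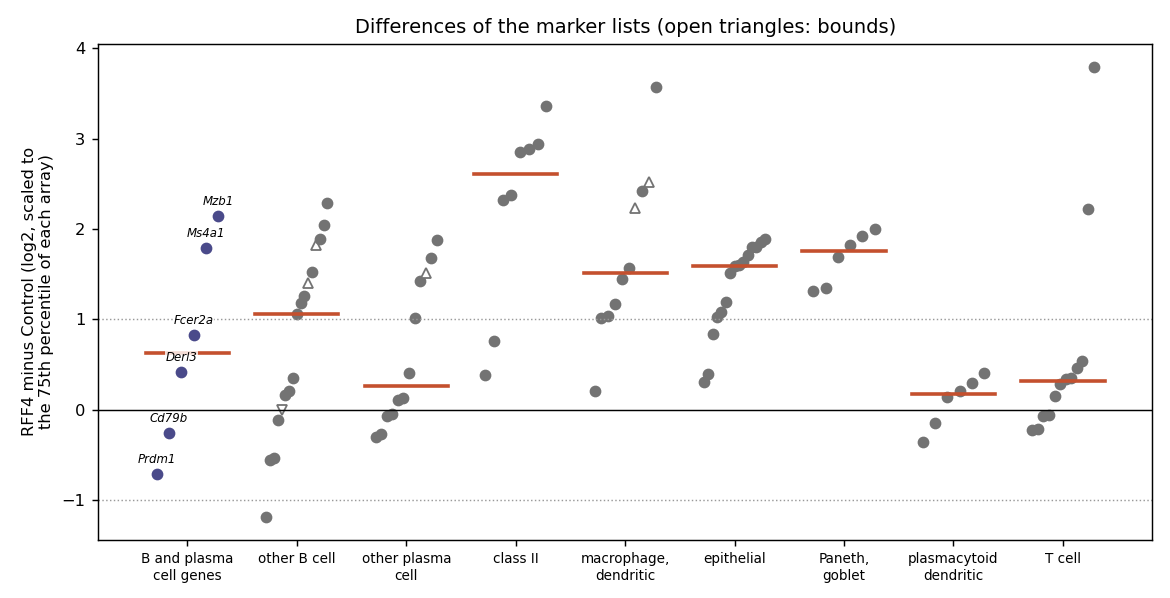
Difference between RFF4 and Control on the log2 scale for each gene with a difference in the 9 B and plasma cell genes (blue, named) and 8 other gene lists (gray), with open triangles for genes measured on 1 array only, red bars for medians and dotted lines at 2-fold. The medians are 0.63 for the B and plasma cell genes, 1.06 for other B cell genes, 0.27 for other plasma cell genes and 0.32 for T cell genes. The T cell median was 0.14 with median scaling, 0.08 with normexp, −0.02 with cyclic loess, −0.19 with quantile normalization and −0.79 with the spike-in scaling.

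Markers of further cell types were higher in RFF4 at the same time as Ms4a1 and Mzb1. Of 10 class II genes, which B cells share with dendritic cells and macrophages, 8 had a difference, all 8 were higher and 6 were more than 4-fold higher, beside 1.85% of all genes, led by Cd74 at 3.37 and H2-Aa at 2.95, and 6 of 9 were higher, each by more than 2-fold, when scaled by the spike-in controls. All 15 epithelial genes were higher, from 0.31 to 1.89, and 12 were more than 2-fold higher, beside 12.3% of all genes. Scaled by the spike-in controls, which brought the median of all genes to −1.08, 10 of 15 were higher and 0 more than 2-fold higher, beside 1.46% of all genes. The median difference of the epithelial list was 1.59, and its median level, on a different gene in each pool, was 3.26 in Control and 4.98 in RFF4. All 6 Paneth and goblet cell genes were more than 2-fold higher, with a median of 1.76, and when scaled by the spike-in controls all 6 were higher and 0 more than 2-fold higher. Of 13 macrophage and dendritic cell genes, 10 had a difference and all 10 were higher, led by Cx3cr1 at 3.57, with Lyz2 at 2.42, and 7 of 11 were higher when scaled by the spike-in controls. Itgax, the brightest of the list, differed by 0.20. Csf1r differed by 1.45 on its brightest probe and by 0.60 and 0.55 on its dimmer probes. The median difference of that list was 1.51, or 0.34 with the spike-in scaling. Its median level, which fell on a different gene in each pool, was −4.68 in Control and −1.94 in RFF4. The plasmacytoid dendritic cell list had a median difference of 0.18 and no gene past 2-fold. That median was 0.08 with cyclic loess, −0.01 with quantile normalization and −0.04 with normexp. With the spike-in scaling it was −0.93, and 2 of 6 genes were more than 2-fold lower, beside 55.6% of all genes. Siglech was bright, at 7.52 in Control and 7.93 in RFF4 on its brighter probe, while Clec12a was below the background mark on both arrays. Which cells gave these signals was not tested. T cell markers were bright in both pools, with Cd3e at a level of 8.10 in Control and 8.44 in RFF4, and Cd8a, at 6.25 and 6.17, and of 12 T cell genes only Thy1 at 3.80 and Cd2 at 2.22 were more than 2-fold higher, beside 12.3% of all genes. Cd4, which the sort should have removed, had levels of 1.67 and 1.80 on its brighter probe, while a second probe gave 34.5 units in Control and 6.18 in RFF4, where it was not well above background. Cd8b1 was well above background in Control alone. The part of any of these cell types in the differences of the B and plasma cell genes was not tested.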

How the data were processed

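The scanner files of 2 arrays were used, 1 per genotype. Per the file headers, the deposited intensity values are linear and background-subtracted and come from Agilent Feature Extraction 10.7.1.1. The authors also deposited a table of log2 values normalized with GeneSpring at settings not given in the sources used here. In 55840 of its 62976 lines the columns sum to 0 within 0.001, 905 are on another scale and 6231 hold no value. Its RFF4 column minus its Control column gave the scanner log2 difference plus 1.16, and the column medians were −0.20 for Control and 0.20 for RFF4.

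Control spots and spots the scanner marked as outliers were dropped, and repeated spots of a probe were averaged. Being well above background required the scanner mark on at least 50% of a probe's spots. By RefSeq accession 27509 of 55679 probes had a gene in GRCm38.p6, and 28170 had none. The brightest probe stood for a gene. A gene marked on 1 array only was given a lower bound, with the other array at the higher of its own value and the lowest marked signal. Of 14231 genes marked on at least 1 array, 558 were at such a bound, and 718 with a bound under 1-fold were given no difference. Differences over 2-fold were counted and no test was run. The single array per genotype limits the precision. The genes named are the 9 genes, members of the lists past 2-fold, defining markers and Rbpj, and a few other list members were named after their values were seen. The 9 genes and the lists were chosen with earlier results of these data known. The steps were tested on simulated data and run in Python 3.11.15 with pandas 2.3.3 and numpy 2.4.6, and in R 4.3.3 with limma 3.58.1 (quantile, cyclic loess and normexp with an offset of 50).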

Additional observations from a re-analysis of the deposited data

How the results depend on the processing

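Median scaling, spike-in scaling, quantile normalization, cyclic loess, normexp, the authors' table, the mean of all probes, plain differences without bounds, no filter on dim probes, genes measured on both arrays only and outlier spots kept were tried. The median difference of the 9 genes, 0.63 over 6 measured genes, became 0.45 with median scaling, −0.48 with the spike-in controls set equal and 0.83 over all 9 genes with no filter. That of the other B cell genes, 1.06, became 0.89 with median scaling and −0.04 (−0.0428) with the spike-in controls. Over the 14 of these genes measured on both arrays it was 0.71. The median of the other plasma cell genes, 0.27, became 0.091 and −0.84 in these scalings and 0.13 over the 11 measured on both arrays. Of the 9 genes, 2 were more than 2-fold higher, beside 12.3% of all genes. This became 1 with the spike-in controls, beside 1.46%, and 4 with no filter, beside 30.0%. With no filter Cd79a and Blk, at background on both arrays, read above 2-fold through the scaling alone. Of all genes, 1665 were more than 2-fold higher and 684 lower, with 207 and 7907 for the spike-in controls, 1098 lower for median scaling and 6272 higher for no filter. Higher genes made up 70.9% of these calls, against 54.5% with median scaling, 2.55% with the spike-in controls and 86.5% with no filter, and these settings moved the median of all genes by −0.17, −1.07 and 0.27. The 8 spike-in controls measured on both arrays differed by −0.06 before scaling. The cause of the moves between scalings was not tested. No paired analysis was possible because each genotype has 1 array, and no array could be left out for the same reason. Alternatives for immunoglobulin segments were not run, since no probe was matched to one. Signals near the local background, as for Ms4a1 and Fcer2a, limit what the dim genes can show.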
